A study of Macaca mulatta with 24 samples.

Results

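A set of 10 signalling genes of the interleukin 6 (IL6) family and of the STAT3 pathway were followed in the colon of irradiated rhesus macaques. They were the ligands IL6, IL11, LIF and OSM, the receptor chains OSMR, IL6ST, IL6R and IL22RA1, the transcription factor STAT3 and its inhibitor SOCS3. The genes were a named list, drawn up with earlier results of these data known, and all their transcript probes were taken, 8 genes by symbol and LIF and IL11 through their gene IDs. All 10 were on the array, where 14491 genes had a symbol, and all 10 entered the test, which covered 13460 named genes. The 10 genes had 17 probes, of which 16 passed the filter of 2 arrays well above background and were tested. OSM reached that level on 5 arrays and IL11 on 2, all of them from day 4, so these genes entered the test only through the day on which they were brightest. With no filter on dim probes, the number of the 10 genes called was the same in all 12 comparisons.

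Colon RNA came from 24 young-adult male macaques, 1 animal per array and without pooling. Total-body irradiation (TBI), a single whole-body dose of gamma rays, was given at 6.7 or 7.4 Gy, and 4 animals per dose were taken on day 4, 4 on day 7 and 2 on day 12. The 4 controls were sham-irradiated and labelled as day 4, and they served every day, so all comparisons against control share the same 4 animals. RNA was extracted from a piece of the whole gut wall, in which fewer cells of a type and less RNA per cell cannot be told apart. Of the 8 tested markers of colon epithelium, all 8 were well above background on every control array. All levels below are log2 signals relative to the 75th percentile of the same array, and a difference of 1 is a 2-fold change. A change was called where limma gave a Benjamini-Hochberg adjusted p under 0.05, over all probes, with at least a 2-fold change. Where a gene has several probes, the brightest stands for it. The limma p-values set a difference of group means against the spread between animals, estimated from all groups together.

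Cytokines of the IL6 family bind a receptor chain of their own and then signal through the shared chain gp130, the product of IL6ST. The receptor-bound JAK kinases phosphorylate STAT3, which enters the nucleus and switches on, among others, SOCS3, a feedback inhibitor of the same receptors. In the gut the family is known for acute phase proteins, for epithelial survival and repair, and, with oncostatin M, for stromal inflammation. IL22 is a cytokine of another family that reaches STAT3 in the epithelium through IL22RA1.

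On day 4 a receptor chain was called higher at 6.7 Gy, and a ligand and the shared chain at 7.4 Gy. At 6.7 Gy OSMR was called, 1 of the 10 genes, where 4.24% of all named genes were called. At 7.4 Gy OSM and IL6ST were called, 2 of the 10, where 8.22% of all named genes were called. With so few calls, nothing is read from these shares about the 10 genes as a list. IL6, IL11, LIF, IL6R and SOCS3 passed the test in no comparison. The median log2 change of the 10 genes was 0.62 at 6.7 Gy and 0.24 at 7.4 Gy, against -0.04 and -0.02 over all named genes. These medians moved with single animals. At 6.7 Gy, with 1 control or irradiated animal left out in turn, the median lay between 0.26 and 0.78. The lowest values were 0.26 without replicate 2 of the irradiated group and 0.38 without control replicate 2. At 7.4 Gy it was 0.54, 0.05 and 0.15 without control replicates 1, 2 and 3, and 0.16, 0.39 and -0.16 without replicates 1, 4 and 3 of the irradiated group.

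**Figure D1:**
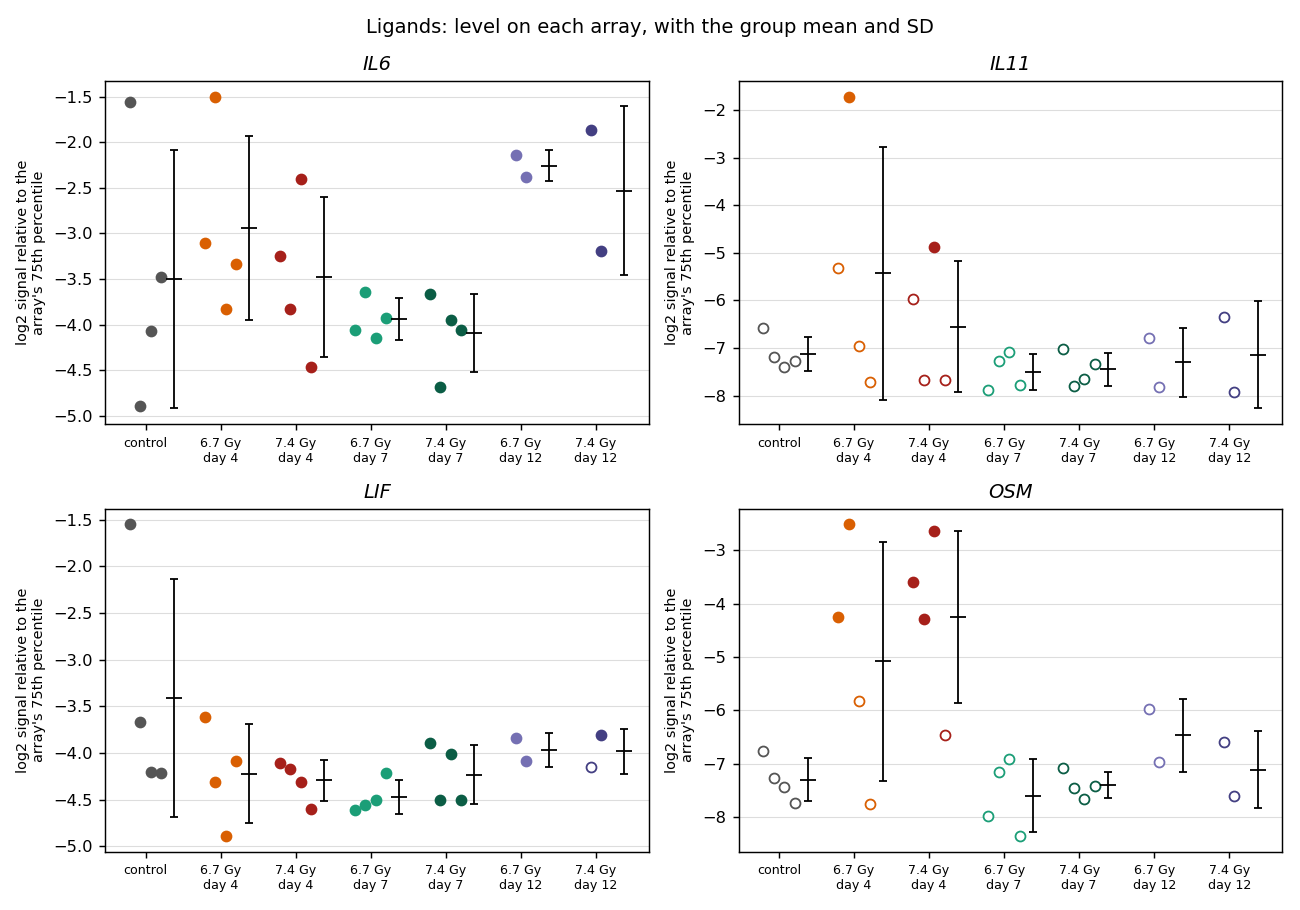
Levels of the 4 ligands in each of the 7 groups. The y axis is the log2 signal relative to the array's 75th percentile, each point is 1 animal, open points were not well above background, and the bar beside each group is its mean with the SD. OSM points rise on day 4 alone, to between -4.29 and -2.51 on the 5 arrays well above background, while control replicate 1 holds the highest LIF value, -1.55.

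OSM encodes oncostatin M, a cytokine released mainly by myeloid and T cells. Its log2 levels in the 4 controls were -6.77, -7.27, -7.43 and -7.73, none of them well above background. On day 4 they were -4.24, -2.51, -5.82 and -7.75 after 6.7 Gy, and -3.60, -4.29, -2.64 and -6.46 after 7.4 Gy. All 4 animals of the 7.4-Gy group lay above all controls, whereas the 6.7-Gy group reached from below the lowest control to the highest value of all 24 arrays. The lowest animal of each group was, like all controls, not well above background, so their order is one of dim signals. Because no control array was well above background, the fold change is a bound: the brighter group's mean against the mean of, per control array, the higher of the probe's value and the lowest signal well above background. OSM was at least 3.73-fold higher at 7.4 Gy, with 3 of 4 arrays well above background and a measured log2 change of 3.05 ± 0.82 (SE, limma adjusted p = 0.0133). At 6.7 Gy 2 of 4 arrays were well above background, and the log2 change of 2.22 ± 0.82 was not called (limma adjusted p = 0.0898). No rise is therefore read from its bound of 2.09-fold. Without replicate 4 of that group, the lowest animal, the change of 3.11 was called.

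The OSM call at 7.4 Gy depended on the processing of a dim probe. It was lost with normexp background correction, which adds 50 units to every signal (log2 change 0.56, limma adjusted p = 0.248), with slide as a block (2.48, adjusted p = 0.0709), with the methods' t-test (adjusted p = 0.0682) and without replicate 3 of that group (2.52, limma adjusted p = 0.0521). Within the slides that also held a control, the day 4 differences were 3.83 and 3.44 at 7.4 Gy, and 0.95 and -0.48 at 6.7 Gy. The 6.7-Gy animals with the highest OSM were hybridised on the slides without a control.

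IL6 is the founding cytokine of the family and a main inducer of the acute phase response. Its levels in the controls were -1.56, -4.89, -4.07 and -3.48, a spread as wide as that over all irradiated animals. On day 4 they were -3.10, -1.50, -3.83 and -3.34 after 6.7 Gy and -3.25, -3.83, -2.40 and -4.46 after 7.4 Gy. Both groups overlapped the controls, and the log2 changes were 0.56 (95% interval -0.66 to 1.77) and 0.02 (-1.20 to 1.23), limma adjusted p = 0.589 and 0.987. With this spread a 2-fold rise was not detectable. On day 7 the 8 animals lay close together, between -4.69 and -3.64, and on day 12 the 4 animals were at -2.14, -2.38, -1.87 and -3.19. Every day 12 animal was above every day 7 animal, as was so in either direction for 1.66% of named genes. The log2 difference between day 12 and day 7 was 1.62 ± 0.50 (SE) and was not called by limma (adjusted p = 0.249).

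LIF, leukaemia inhibitory factor, signals through LIFR and gp130. Control replicate 1 stood apart at -1.55, and the other controls were at -3.67, -4.20 and -4.21. All irradiated animals lay between -4.89 and -3.61, below control replicate 1 and around the other controls. The log2 changes on day 4 were -0.82 and -0.89, and on day 7 -1.06 and -0.82, for 6.7 and 7.4 Gy, none called. Without control replicate 1 these 4 values were -0.20, -0.27, -0.44 and -0.20. The same control also had the highest IL6 of its group, and without it the IL6 change on day 4 was 1.20 at 6.7 Gy (limma adjusted p = 0.159) and 0.66 at 7.4 Gy (adjusted p = 0.393). Without replicate 2 of 6.7 Gy day 4, in turn, the IL6 change there was 0.08 (limma adjusted p = 0.956).

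IL11, a cytokine of stromal cells, was well above background in 2 animals only. These were replicate 2 of 6.7 Gy day 4, at -1.72, and replicate 3 of 7.4 Gy day 4, at -4.87. All other arrays lay between -7.93 and -5.32, with the controls between -7.41 and -6.59. Both animals were those with the highest OSM of their group. IL11 was called in no comparison. No control array was well above background, and at 6.7 Gy on day 4 replicate 2 alone was. The measured log2 change there, 1.69 ± 0.88 (SE, limma adjusted p = 0.235), was 0.45 without replicate 2. No rise is therefore read from the bound of 1.64-fold between the group means. With array position as a block, which rests on the 6.7-Gy group alone lying in both positions, IL11 and OSM were called at both doses (limma adjusted p = 0.0140 and 0.0257 for IL11, 0.00733 and 0.00325 for OSM). With scan day added to that block, the IL11 call at 7.4 Gy was lost (adjusted p = 0.142).

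**Figure D2:**
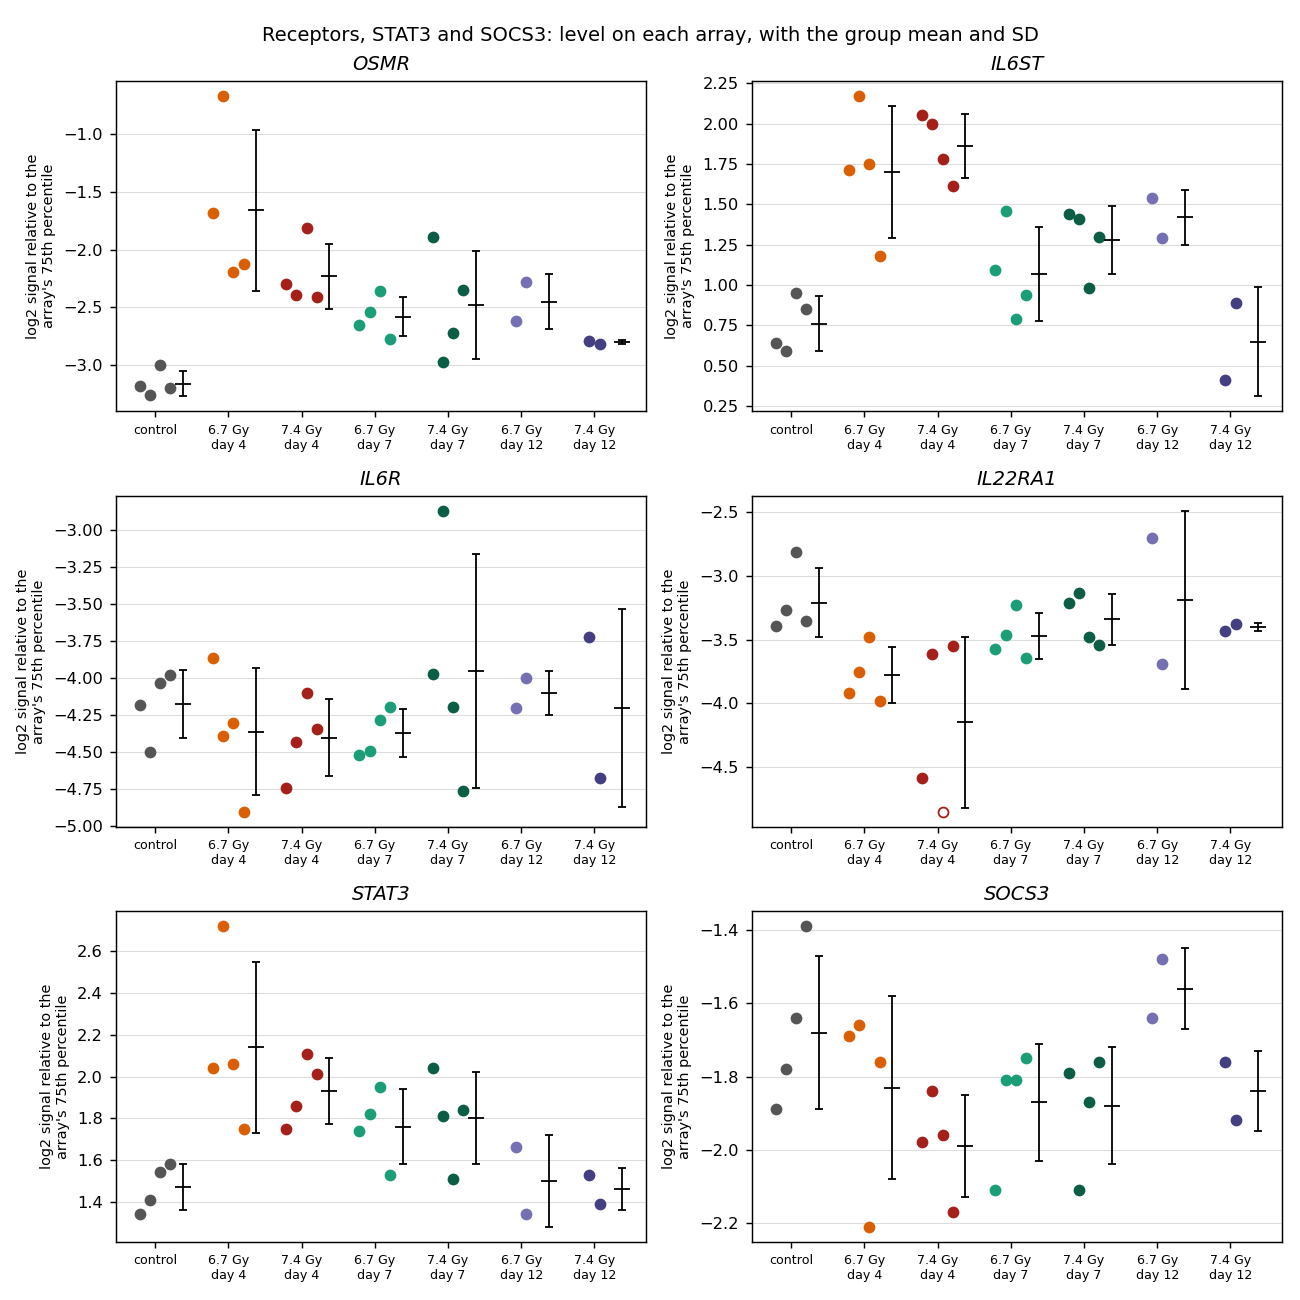
Levels of the 4 receptor chains, STAT3 and SOCS3 in each of the 7 groups. The y axis is the log2 signal relative to the array's 75th percentile, each point is 1 animal, the open point was not well above background, and the bar beside each group is its mean with the SD. For OSMR all irradiated animals lie above all controls, the closest pair being -2.97 and -3.0.

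OSMR encodes the chain that pairs with gp130 to form the oncostatin M receptor. Its levels were -3.18, -3.26, -3.0 and -3.20 in the controls, -1.68, -0.67, -2.19 and -2.12 on day 4 after 6.7 Gy, and -2.30, -2.39, -1.81 and -2.41 on day 4 after 7.4 Gy. All 8 animals of day 4 lay above all 4 controls. OSMR rose 2.82-fold at 6.7 Gy, a log2 change of 1.5 ± 0.27 (SE, limma adjusted p = 0.00262). At 7.4 Gy the log2 change was 0.93 ± 0.27, which passed the adjusted p (limma, 0.0187) but not the 2-fold limit. Without replicate 2, the highest animal, the change at 6.7 Gy was 2.24-fold and was still called (limma adjusted p = 0.00582). That call was lost under the methods' t-test alone (adjusted p = 0.0861).

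On the later days OSMR also lay above the controls, without a call. Its mean was -3.16 ± 0.11 (SD, n = 4) in the controls, -2.58 ± 0.17 and -2.48 ± 0.47 on day 7 (n = 4 each), and -2.45 ± 0.24 and -2.80 ± 0.02 on day 12 (n = 2 each), for 6.7 and 7.4 Gy. All 20 irradiated animals were above all 4 controls, narrowly at the closest pair, and the same was so for 35 of the 13460 named genes, or 0.26%. None of these later changes was called: the log2 changes were 0.58 and 0.68 on day 7 (limma adjusted p = 0.493 and 0.324) and 0.71 and 0.36 on day 12 (adjusted p = 0.686 and 0.898). With slide as a block the change at 7.4 Gy on day 12 was -0.06 (limma adjusted p = 0.978). The day 7 and day 12 arrays lay in other array positions than the controls, so position and group cannot be told apart there. In the order of the 7 means, 6.7 Gy day 4 was highest and the controls lowest. The groups next to each other in that order overlapped down to 6.7 Gy day 7. The 2 animals of 7.4 Gy day 12 came below it, just clear of its lowest animal at -2.77, and above the controls.

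IL6ST encodes gp130, the signal-transducing chain that all the IL6 family ligands here share. Its levels were 0.64, 0.59, 0.95 and 0.85 in the controls. On day 4 they were 1.71, 2.17, 1.75 and 1.18 after 6.7 Gy and 2.05, 2.0, 1.78 and 1.61 after 7.4 Gy. Neither day 4 group overlapped the controls. IL6ST rose 2.15-fold at 7.4 Gy, a log2 change of 1.1 ± 0.19 (SE, limma adjusted p = 0.000732). At 6.7 Gy the change was 1.93-fold (0.95 ± 0.19, limma adjusted p = 0.00579), just short of the 2-fold limit, and it was called under 8 of 24 alternatives, among them without control replicate 3 (1.01) and without replicate 4 of that group (1.12). At 7.4 Gy a fit with position and scan day both as blocks ended the call (1.67, limma adjusted p = 0.0586).

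Of the 6 probes tested, all 6 had a positive log2 change on day 4 at both doses, between 0.32 and 0.98 at 6.7 Gy and between 0.26 and 1.1 at 7.4 Gy. At each dose 5 of the 6 had an adjusted p under 0.05, and the brightest alone passed the 2-fold limit, at 7.4 Gy. With the mean of the probes in place of the brightest, the change at 7.4 Gy was 0.77 (limma adjusted p = 0.00338) and was not called.

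**Figure D3:**
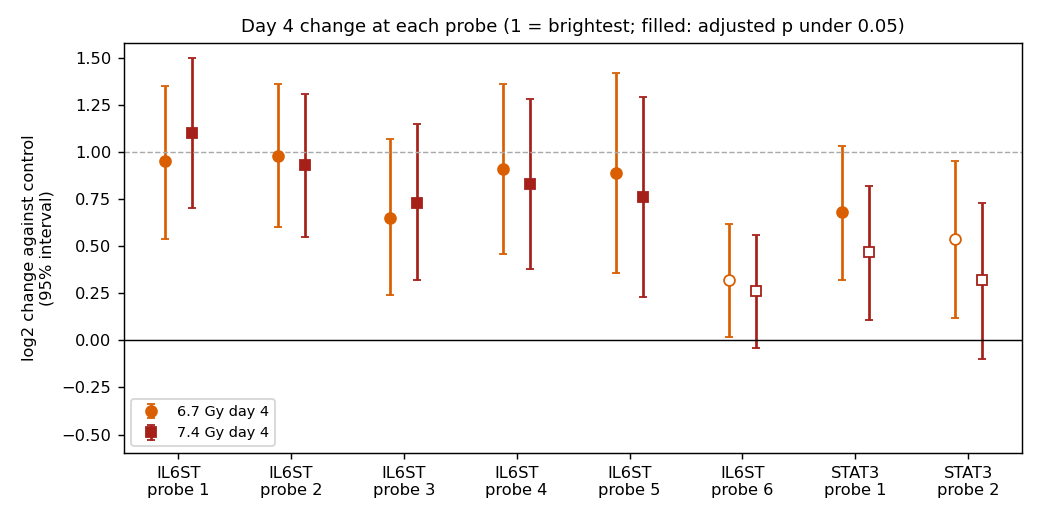
Log2 change on day 4 against control at each tested probe of IL6ST and STAT3, numbered from the brightest. Points are the fitted change with its 95% interval, circles are 6.7 Gy, squares 7.4 Gy, and filled points had an adjusted p under 0.05. All IL6ST probes lie above 0, and probe 6 has the smallest changes, 0.32 and 0.26.

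IL6R, the chain that binds IL6 itself, and IL22RA1, the epithelial chain of the IL22 receptor, did not share that rise. IL6R lay between -4.50 and -3.98 in the controls and between -4.90 and -3.86 on day 4, with log2 changes of -0.19 (95% interval -0.82 to 0.44) and -0.23 (-0.86 to 0.40). The highest IL6R level of all arrays, -2.87, was in replicate 2 of 7.4 Gy day 7. IL22RA1 was at -3.39, -3.27, -2.81 and -3.35 in the controls, -3.92, -3.75, -3.48 and -3.98 on day 4 after 6.7 Gy, and -4.59, -3.61, -4.85 and -3.55 after 7.4 Gy. All 8 day 4 animals were below all 4 controls. The log2 change at 7.4 Gy was -0.94 ± 0.26 (SE, limma adjusted p = 0.0153), short of the 2-fold limit. It was called without control replicate 1 (-1.01) and without replicate 2 (-1.12) or 4 (-1.15) of that group. With normexp background correction it was -0.54 (limma adjusted p = 0.072), and with array position as a block -1.04 (adjusted p = 0.172), neither passing the adjusted p. Replicate 3 of that group, the lowest at -4.85, was not well above background. At 6.7 Gy the log2 change was -0.58 ± 0.26 (limma adjusted p = 0.166). On day 7 the changes were -0.27 and -0.14, and the day 7 animals were higher than those of day 4 by 0.56 (limma adjusted p = 0.0309).

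STAT3 carries the signal of these receptors to the nucleus. Its levels were 1.34, 1.41, 1.54 and 1.58 in the controls, 2.04, 2.72, 2.06 and 1.75 on day 4 after 6.7 Gy and 1.75, 1.86, 2.11 and 2.01 on day 4 after 7.4 Gy. Neither day 4 group overlapped the controls. The log2 change was 0.68 ± 0.17 (SE) at 6.7 Gy, or 1.6-fold, with a limma adjusted p of 0.0178. At 7.4 Gy it was 0.47 ± 0.17, or 1.38-fold, with an adjusted p of 0.0580, and both stayed under the 2-fold limit. Without replicate 2 of 6.7 Gy day 4 the change there was 0.48 (limma adjusted p = 0.0526). The second STAT3 probe had log2 changes of 0.54 and 0.32 on day 4, with adjusted p of 0.0926 and 0.278 in limma. On day 12 the levels were 1.66, 1.34, 1.53 and 1.39, below all 8 day 4 animals. Such a separation of day 12 from day 4, in either direction, was seen for 15.7% of named genes.

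SOCS3, the feedback inhibitor that STAT3 induces, was not called higher in any group. Its log2 change was above 0 only at 6.7 Gy on day 12, at 0.12. Its levels were -1.89, -1.78, -1.64 and -1.39 in the controls, -1.69, -1.66, -2.21 and -1.76 on day 4 after 6.7 Gy and -1.98, -1.84, -1.96 and -2.17 on day 4 after 7.4 Gy. The groups overlapped, and the log2 changes were -0.16 (95% interval -0.45 to 0.14) and -0.31 (-0.61 to -0.01), with limma adjusted p of 0.523 and 0.130. The intervals leave out any rise of 2-fold at either dose on day 4.

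**Figure D4:**
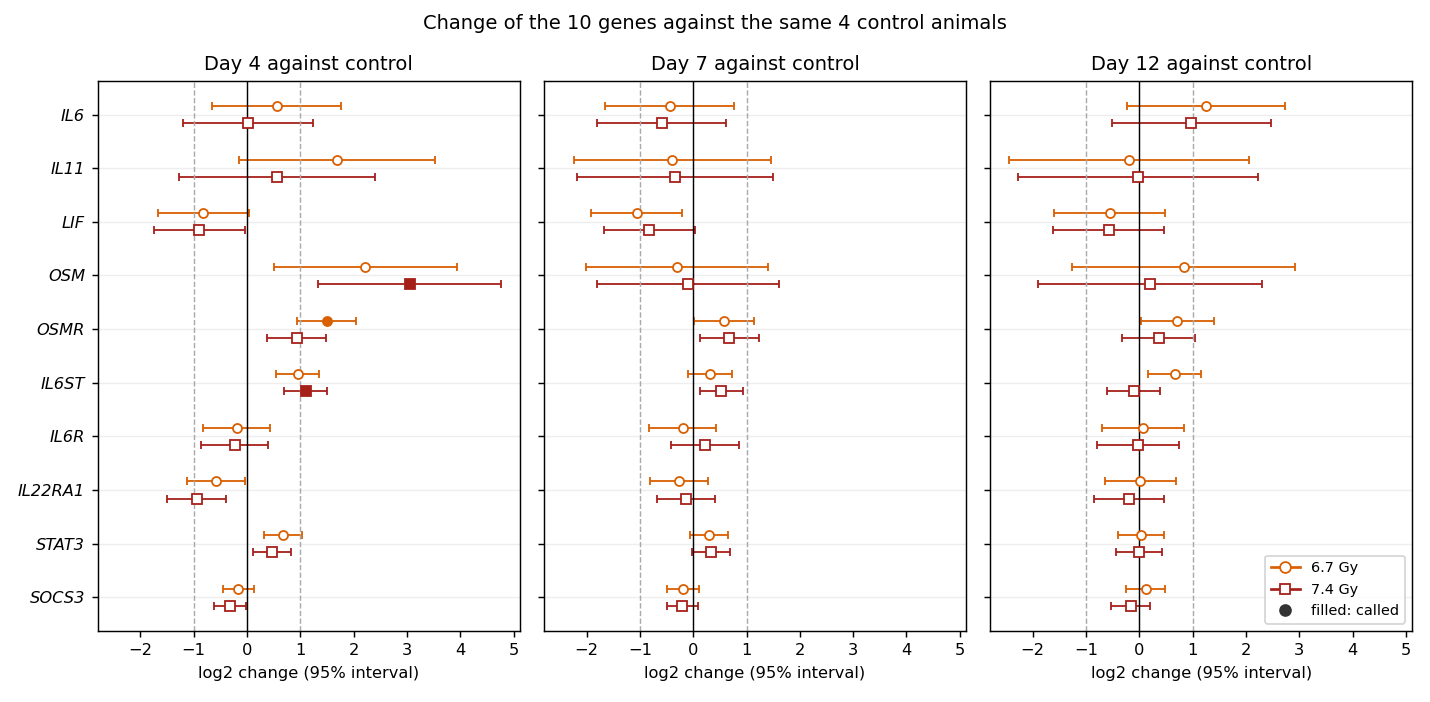
Log2 change of the 10 genes against control, by day, with 95% intervals. Circles are 6.7 Gy and squares 7.4 Gy, filled symbols were called, and dashed lines mark a 2-fold change. The called genes are OSMR at 6.7 Gy and OSM and IL6ST at 7.4 Gy, all on day 4. OSM and IL11 were not well above background on any control array, so their plotted changes are against a floor.

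No gene of the 10 was called against control after day 4. On day 7 limma called 0 of the 10 at either dose, where 0.386% and 0.498% of all named genes were called at 6.7 and 7.4 Gy, and 2 of the 10 had an unadjusted p under 0.05 at each dose. On day 12, with 2 animals per dose, 0 of the 10 were called, where 0.0149% of named genes were called at each dose, with 2 and 0 at an unadjusted p under 0.05. No alternative setting called any of the 10 on these days. At 6.7 and 7.4 Gy, 4 and 5 of the 10 did not overlap the controls on day 4, against 17.7% and 26.0% of all named genes. The number was 2 and 2 on day 7, against 8.14% and 6.69%, and 2 and 1 on day 12, against 18.7% and 16.2%. OSM is among the 5 at 7.4 Gy on day 4, where its lowest animal and all controls were not well above background.

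Between days, OSM fell back. Over both doses it fell by 2.84 on the log2 scale from day 4 to day 7 (SE 0.58, limma adjusted p = 0.00157), at least 3.05-fold, since none of the 8 day 7 arrays was well above background against 5 of the 8 on day 4. It was the only one of the 10 genes called in that comparison, where 5.04% of all named genes were called. From day 4 to day 12 it fell by 2.13 (SE 0.71, limma adjusted p = 0.0345), at least 2.21-fold, again 1 of the 10, where 7.63% were called. The day 12 call rested on 4 animals and was lost when any of the 4, or any of 4 day 4 animals, was left out. With normexp correction the fall to day 7 was 0.49 and not called, and the day 12 difference was 0.09 in the other direction.

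IL6ST and OSMR came down as well, by less than 2-fold. IL6ST fell by 0.60 from day 4 to day 7 and by 0.75 to day 12 (limma adjusted p = 0.00332 and 0.00337). OSMR fell by 0.59 and 0.68 (adjusted p = 0.0275 and 0.0370). STAT3 fell by 0.56 from day 4 to day 12 (limma adjusted p = 0.00979). Between days 7 and 12 none of the 10 was called by limma, where 0.134% of named genes were called, and 1 of the 10, IL6, had an unadjusted p under 0.05.

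The doses did not separate these genes. In the comparison of 7.4 with 6.7 Gy, limma called 0 of the 10 on day 4, day 7 and day 12, and 0% of all named genes on each day, where 1004, 240 and 480 of all named genes had an unadjusted p under 0.05. Of the 10, 1, 0 and 1 did. The former was OSMR on day 4, lower at 7.4 Gy by 0.56 on the log2 scale (95% interval -1.12 to -0.01, limma adjusted p = 0.802), and by 0.23 without replicate 2 of 6.7 Gy day 4. The latter was IL6ST on day 12, lower at 7.4 Gy by 0.77 (-1.34 to -0.20, adjusted p = 0.999), with 2 animals per dose. For OSM on day 4 the difference was 0.83 (-0.88 to 2.54), an interval that holds both no difference and a difference of several fold.

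Replicate 2 of 6.7 Gy day 4 had the highest level of all 24 arrays for 6 of the 10 genes: IL6, IL11, OSM, OSMR, IL6ST and STAT3. Of all named genes, 9.81% had their highest value on that array, the largest share of any array. The same animal had the lowest mean level of the colon epithelium markers (3.36, against 4.47 to 4.55 in the controls) and of the goblet cell markers (0.37, against 1.28 to 1.85) among the 24. Its mean levels of macrophage and monocyte markers (1.54, against 0.92 to 1.29 in the controls), fibroblast markers (2.52, against 1.42 to 2.11) and endothelial markers (-0.61, against -1.35 to -1.07) lay above all controls. That was not particular to this animal, which ranked 4, 4 and 2 of the 24 on these lists. Most other day 4 animals also lay above all controls on each of them. Its neutrophil marker level, -3.25, lay within the control range of -3.86 to -3.09. Whether its cell makeup had a part in these values was not tested. This animal was singled out after its values were seen. Without it, the OSM change at 6.7 Gy on day 4 was 1.36 (limma adjusted p = 0.272) and that of IL6ST 0.79 (adjusted p = 0.0220).

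The other genes of the pathway were taken from 7 lists of 97 genes in all, of which 83 were tested. The lists were chosen with earlier results of these data known, so no excess is read from the shares below. On day 4, 7 of the 83 rose and 1 fell at 6.7 Gy, 9.64% where 4.24% of all named genes were called, and 13 rose and 2 fell at 7.4 Gy, 18.1% where 8.22% were called. The number that rose at 7.4 Gy was 8 without replicate 3 of that group. With the methods' t-test 1 rose at 6.7 Gy and 7 at 7.4 Gy. On days 7 and 12 limma called 0 of the 83 against control, with 17 and 14 at an unadjusted p under 0.05 on day 7 and 4 and 4 on day 12. From day 4 to day 7, 5 of the 83 fell and 2 rose, 8.43% where 5.04% of all named genes were called. The number that fell was 9 without replicate 2 of 6.7 Gy day 7 and 8 without replicate 4 of 7.4 Gy day 4. From day 4 to day 12, 13 fell and 1 rose, 16.9% where 7.63% were called, and 8 fell without replicate 1 of 7.4 Gy day 12.

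**Figure D5:**
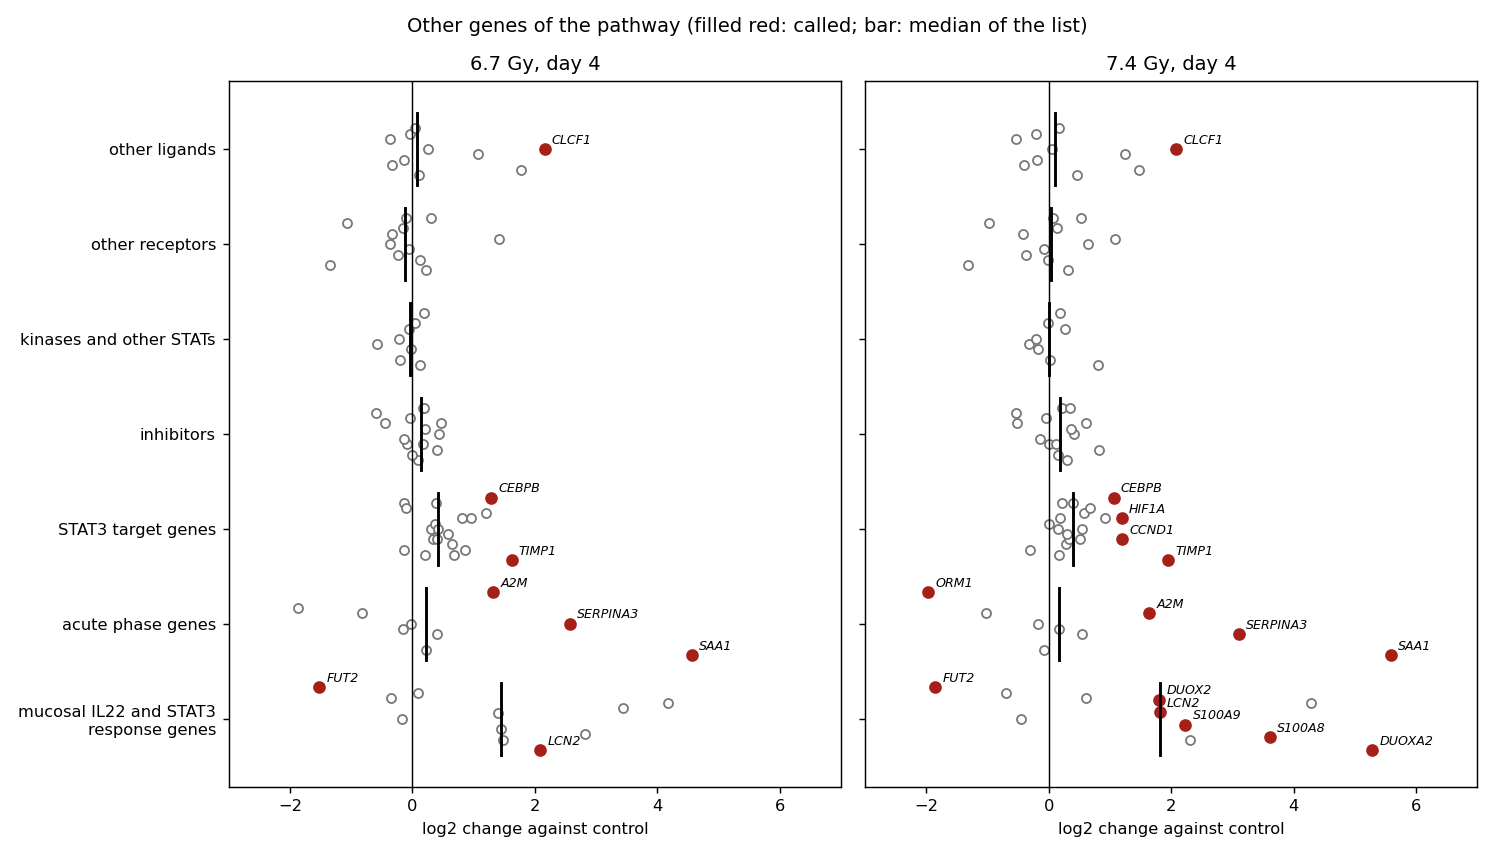
Log2 change on day 4 against control of the 83 tested genes in the 7 pathway lists, at 6.7 Gy (left) and 7.4 Gy (right). Each point is a gene, filled red points were called, and the vertical bar is the median of the list. Receptors, kinases and inhibitors hold no called gene, and the called genes lie in the other 4 lists. SAA1 and DUOXA2 were not well above background on any control array, nor ORM1 on any 7.4-Gy array, so their plotted changes are against a floor.

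Among the other ligands, receptors, kinases and inhibitors, called genes were few on day 4. Calls were also few over all named genes, 4.24% at 6.7 Gy and 8.22% at 7.4 Gy, so nothing is read from these counts. Among 10 tested ligands of related receptors CLCF1 alone rose. CLCF1, cardiotrophin-like cytokine factor 1, is a gp130 ligand that binds the CNTF receptor, and its log2 levels went from -5.69 to -3.94 in the controls to -3.25 to -1.20 at 6.7 Gy and -3.12 to -2.28 at 7.4 Gy. It rose 4.48-fold at 6.7 Gy (log2 change 2.16 ± 0.43, limma adjusted p = 0.00517), and at 7.4 Gy 4.22-fold (2.08 ± 0.43, limma adjusted p = 0.00264). Neither group overlapped the controls. Limma called 0 of 12 other receptors, 0 of 8 kinases and other STATs and 0 of 14 inhibitors. At an unadjusted p under 0.05 there were 3, 0 and 4 of them at 6.7 Gy and 3, 1 and 4 at 7.4 Gy. LIFR, the partner of gp130 in the LIF receptor, had log2 changes of -0.10 and 0.07, and JAK1 of 0.19 and 0.18. SOCS1 had a log2 change of 0.82 at 7.4 Gy (limma adjusted p = 0.0361), short of 2-fold.

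Among 19 tested target genes of STAT3, 2 rose at 6.7 Gy and 4 at 7.4 Gy, and none fell. Of all named genes, 4.24% and 8.22% were called at these doses, and nothing is read from so few calls. The median log2 change of the list was 0.42 and 0.39, beside -0.04 and -0.02 over all named genes. TIMP1, an inhibitor of matrix metalloproteinases, rose 3.08-fold and 3.86-fold (limma adjusted p = 0.0139 and 0.00195). CEBPB, a transcription factor of the acute phase response, rose 2.43-fold and 2.08-fold (adjusted p = 0.00866 and 0.0126). CCND1, the cell cycle regulator cyclin D1, and HIF1A, the oxygen-regulated transcription factor, rose 2.30-fold and 2.28-fold at 7.4 Gy (limma adjusted p = 0.000491 and 0.000202). The other targets were not called, among them FOS (log2 change 1.20 and 0.58), JUNB (0.64 and 0.28) and MYC (0.41 and 0.33), transcription factors that many other signals induce as well.

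Acute phase genes encode plasma proteins that IL6 and related cytokines induce, in the liver above all. Of 9 tested, 3 rose at both doses on day 4, where 4.24% of all named genes were called at 6.7 Gy and 8.22% at 7.4 Gy. SAA1, serum amyloid A, went from -7.49 to -5.96 in the controls, none well above background, to -3.88 to 0.76 at 6.7 Gy and -4.44 to 1.09 at 7.4 Gy. It was at least 16.1-fold and at least 32.9-fold higher (limma adjusted p = 0.0226 and 0.00336), with no overlap. SERPINA3, a protease inhibitor, rose 5.95-fold and 8.65-fold (adjusted p = 0.0300 and 0.00545), and A2M, alpha-2-macroglobulin, 2.49-fold and 3.11-fold (adjusted p = 0.00545 and 0.000421). ORM1 was at least 2.01-fold lower at 7.4 Gy (limma adjusted p = 0.0412) and was well above background on 2 control arrays only.

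Mucosal response genes of IL22 and STAT3 encode antimicrobial and barrier proteins of the epithelium and of the cells that enter it. Of 11 tested, 1 rose and 1 fell at 6.7 Gy on day 4, and 5 rose and 1 fell at 7.4 Gy. Of all named genes, 4.24% and 8.22% were called at these doses. The median log2 change of the list was 1.44 and 1.81 on day 4 and still 1.32 and 1.22 on day 7, when limma called 0 of the 11 (4 and 3 at an unadjusted p under 0.05), and it was 0.09 and -0.03 on day 12. LCN2, the iron-sequestering lipocalin, rose 4.25-fold and 3.50-fold (limma adjusted p = 0.00692 and 0.00740). The paper reports a much larger rise of this gene in irradiated colon at both doses. The values given here are those of the probe that stands for the gene, and the reason for the difference was not tested. DUOXA2, which matures the oxidase DUOX2, was at least 17.2-fold higher at 7.4 Gy (adjusted p = 0.0155), with no control array well above background. The calprotectin subunit S100A8, which neutrophils carry in abundance, rose 12.2-fold at 7.4 Gy (limma adjusted p = 0.0312), and its partner S100A9 rose 4.69-fold (adjusted p = 0.0198). FUT2, the fucosyltransferase that decorates mucins, fell at both doses, from -1.13 to -0.67 in the controls to -2.79 to -1.98 at 6.7 Gy and -2.89 to -2.31 at 7.4 Gy (limma adjusted p = 0.000441 and 2.29e-05).

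Markers of several cell types moved with these changes on day 4, and their part in the results was not tested. Over all named genes, 4.24% were called at 6.7 Gy and 8.22% at 7.4 Gy on that day. Of 7 tested markers of absorptive colonocytes, the cells that line the gut surface, 3 fell at 6.7 Gy and 5 at 7.4 Gy, and their mean log2 level was 4.52 to 5.07 in the controls, 1.86 to 3.54 at 6.7 Gy and 0.35 to 3.35 at 7.4 Gy. General colon epithelium markers fell for 2 and 3 of 8, and goblet markers for 0 and 1 of 5. Epithelial cells are where IL22RA1 and FUT2 are known to be expressed. On day 7 the mean level of the absorptive markers was 4.43 to 4.68 after 6.7 Gy and 2.61 to 4.78 after 7.4 Gy.

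Among the cell types known to express OSMR, fibroblast markers rose for 0 of 8 at 6.7 Gy and 3 of 8 at 7.4 Gy (COL1A2, COL3A1 and PDGFRB), with mean levels of 1.42 to 2.11 in the controls, 1.55 to 2.52 at 6.7 Gy and 2.46 to 2.93 at 7.4 Gy. At an unadjusted p under 0.05 there were 4 of the 8 at 6.7 Gy and 8 of the 8 at 7.4 Gy. Beside the counts called in this paragraph stand 4.24% of all named genes called at 6.7 Gy and 8.22% at 7.4 Gy. Endothelial markers rose for 0 and 1 of 5, with 2 and 2 at an unadjusted p under 0.05. Among likely sources of OSM, limma called 0 of 6 macrophage and monocyte markers (0 and 4 at an unadjusted p under 0.05), with mean levels of 0.92 to 1.29 in the controls, 0.75 to 1.64 at 6.7 Gy and 1.37 to 1.82 at 7.4 Gy. It called 0 of 4 tested neutrophil markers (1 and 1 at an unadjusted p under 0.05), with mean levels of -3.86 to -3.09 in the controls, -4.23 to -2.32 at 6.7 Gy and -4.27 to -3.28 at 7.4 Gy. It also called 0 of 7 T lymphocyte, 0 of 4 B lymphocyte and 0 of 3 smooth muscle markers on day 4, with 1, 0 and 0 at an unadjusted p under 0.05 at 6.7 Gy and 1, 2 and 0 at 7.4 Gy. Red blood cell markers fell for 2 and 1 of 4.

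The 3 genes called against control each had close neighbours in pattern, given here as a description over the 24 arrays by Pearson's r. OSM was most like RGS2 (0.918), PRKAR1A (0.906) and RGS16 (0.906). IL6ST was most like A2M (0.897), TM4SF18 (0.875) and CH25H (0.849), and OSMR was most like BEGAIN (0.864), KIAA1549 (0.848) and SERPINB8 (0.847). All arrays share the groups, slides and scaling, so animals of day 4 weigh heavily in these values.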

How the data were processed

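RNA from 24 colons was hybridised to 1-colour Agilent rhesus arrays. Intensities were read by the authors in Feature Extraction 11.0.1.1, per the file headers. The deposited processed signal is an intensity with the local background subtracted. The authors' deposited normalized table, used as an alternative, holds log2 values scaled to the 75th percentile and centred on each probe's median.

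Here, log2 processed signals were set relative to each array's 75th percentile (550.7 to 963.6 intensity units). Spots marked as outliers were set to missing, and spots of a probe were averaged. The share of probes well above background was 66.6% to 84.8% per array. Precision is limited by the number of animals. Of 43603 probes, 38220 were well above background on at least 2 arrays and were tested. LIF and IL11 carry LOC symbols in the files and were named through their gene IDs, the other 8 by symbol.

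All 24 arrays entered a single limma 3.58.1 model (R 4.3.3) with a mean for each group, which was tested on simulated data. There were 12 comparisons: 6 groups against control, 3 between doses and 3 between days. P-values were 2-sided, with Benjamini-Hochberg adjustment over all probes. The methods' t-test, exact permutation tests, other scalings, filters and blocks, and leaving out each array were alternatives. The 6 slides held 4 arrays each. All controls lay in position 1, the 6.7-Gy animals of day 4 in positions 1 and 2, and those of 7.4 Gy in position 2 alone. Later days lay in positions 3 and 4. For days 7 and 12 against control or day 4, position and group cannot be told apart. For 7.4 Gy on day 4 against control, position and group part only through the 6.7-Gy group. Slides 1 and 2 were scanned on another day than the other 4.

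The 10 genes, 7 pathway lists and 11 marker lists were chosen with earlier results of these data known. Named from the lists were at most 4 called genes per list, those with the largest change at 7.4 Gy on day 4, plus single genes chosen after their values were seen (LIFR, JAK1, SOCS1, FOS, JUNB, MYC, LCN2 and the 3 fibroblast markers). Promoter motifs were not searched, since no sequences were used here.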

Additional observations from a re-analysis of the deposited data

Results flagged for a closer look

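The OSM response differed between days. Over both doses the log2 difference was -2.84 between day 7 and day 4 and -2.13 between day 12 and day 4, each past the threshold in limma. No day 7 or day 12 array was well above background, so the falls are bounds, at least 3.05-fold and at least 2.21-fold. The day 12 value rests on 4 animals and turned to 0.09 with normexp background correction.

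In the 6.7-Gy group of day 7, SOCS3 was lower in replicate 1, at -2.11, than in the other 3 animals, at -1.81 to -1.75. This was 1 of 80 groups of 4 looked at in this way, and chance sets about 1 in 20 such groups apart.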

How the results depend on the processing

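Of the 10 genes, the number called on day 4 at 6.7 Gy was 1. It was 2 with normexp background correction, quantile normalization, median scaling or spike-in scaling, 4 with array position or with position and scan day as blocks, 0 with the methods' t-test, 3 with no minimum fold, and 1 to 3 when each array in turn was left out. At 7.4 Gy the number was 2. It was 1 with normexp, a stricter filter on dim probes, slide as a block, position and scan day as blocks, the methods' t-test or the mean of all probes of a gene, 3 with quantile normalization, median or spike-in scaling (OSMR gained) or scan day as a block (IL22RA1 gained), 4 with position as a block or no minimum fold, and 1 to 3 with 1 array left out. Between day 7 and day 4 it was 1, but 0 with normexp or the stricter filter, 4 with no minimum fold, and 1 to 2 with 1 array left out. Between day 12 and day 4 it was 1, but 0 with normexp, the stricter filter, only the groups compared or the methods' t-test, 5 with no minimum fold, and 0 to 1 with 1 array left out. The other 8 comparisons called 0 of the 10 in each setting run. The stricter filter asked for 12 arrays well above background, and OSM, with 5, was not tested under it. The lower counts with that filter are therefore not failed tests of OSM.

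The OSM difference between day 12 and day 4 turned to 0.09 with normexp (limma adjusted p = 0.808), and its call was lost under 11 of 26 alternatives. The OSMR rise at 6.7 Gy kept its call under 24 of 25 alternatives, with log2 changes of 1.06 to 1.98. IL6ST at 7.4 Gy kept its call under 23 of 25 and OSM at 7.4 Gy under 20 of 24. Spike-in scaling raised the median change of all probes on day 4 to 0.14 and 0.20, from -0.07 and -0.08. Equal replicate numbers did not pair animals (mean correlation 0.009), while arrays of a slide deviated together somewhat more (0.133, against -0.023 between slides), and the replicate block left the counts at 1 and 2 on day 4 and at 1 for each later day against day 4. Of the 83 pathway genes, 4 rose at 6.7 Gy and 8 at 7.4 Gy with normexp, 11 and 16 with spike-in scaling, 3 at 6.7 Gy with only the groups compared, and 2 at 7.4 Gy with position and scan day as blocks. The causes of these shifts were not tested. OSM and IL11 were near background outside day 4, which limits what their later values show, and day 12 had 2 animals per dose.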
